A study of Mus musculus with 4 samples.

Results

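The 10 genes described here are Slc2a1, Hk1, Hk2, Pgk1, Pkm, Ldha, Ldhb, Pdk1, Hif1a and Txnip, taken by symbol from a count table of 13742 genes. All 10 were in the table. They were followed in single haematopoietic stem cells (HSCs) from the bone marrow of wild-type mice aged 8 weeks, in 292 of 297 cells that had at least 10000 counts and at least 1000 genes with a count. After enrichment with c-Kit microbeads, the cells were sorted as lineage-negative, Kit+, Sca-1+, CD150+, CD48- and CD201+ (EPCR+), each into its own tube of an 8-tube strip. CD27- and CD27+ cells are both named for each of the 4 libraries, and no source used here gives the gate of a cell, so the libraries were treated as 1 group (n = 4) and no gate comparison was made. The libraries kept 74, 75, 71 and 72 cells. The design has no untreated against treated contrast. Nothing in the labels ties a library to its own mice, so every spread and p-value below is between these libraries and may be technical.

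Glycolysis turns glucose into pyruvate in the cytoplasm. Glucose enters through transporters such as the product of Slc2a1 (GLUT1), hexokinases encoded by Hk1 and Hk2 trap it as glucose 6-phosphate, phosphoglycerate kinase (Pgk1) and pyruvate kinase (Pkm) form ATP, and the lactate dehydrogenase subunits encoded by Ldha and Ldhb interconvert pyruvate and lactate. Pyruvate dehydrogenase kinase 1 (Pdk1) slows the entry of pyruvate into mitochondria. Hif1a encodes the oxygen-regulated subunit of the transcription factor HIF-1, which is controlled largely at the level of protein stability and activates many of these genes. Txnip encodes an arrestin-family protein that binds thioredoxin and lowers glucose uptake, and its transcription responds to glucose through MondoA and its partner Mlx. HSCs of adult marrow are widely described as relying on glycolysis more than their progeny do. RNA levels do not measure flux or HIF-1 protein.

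The start-site regions of Txnip and of the 2 isoenzyme pairs are shown because these genes carry the main contrasts below. Txnip stands first in CPM. The pairs divide differently between cells but also differ in the share of cells with a count. Sequences are from RefSeq on GRCm38.p6, 250 bases before to 50 after an annotated start, written 5′ to 3′ along the gene's strand. RefSeq gave 14 such windows for the 10 genes. In the Txnip window, at chr3:96557707-96558006 on the plus strand, capitals mark a pair of CACGAG half-sites 5 bases apart, the form of the carbohydrate response element known at this gene. In the 4 other windows capitals mark ACGTG or GCGTG on either strand, the letters of the core that HIF binds. These are Ldha at chr7:46845554-46845853 (plus strand), Ldhb at chr6:142507908-142508207 (minus), Hk1 at chr10:62340372-62340671 (minus) and Hk2 at chr6:82774405-82774704 (minus).

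Txnip: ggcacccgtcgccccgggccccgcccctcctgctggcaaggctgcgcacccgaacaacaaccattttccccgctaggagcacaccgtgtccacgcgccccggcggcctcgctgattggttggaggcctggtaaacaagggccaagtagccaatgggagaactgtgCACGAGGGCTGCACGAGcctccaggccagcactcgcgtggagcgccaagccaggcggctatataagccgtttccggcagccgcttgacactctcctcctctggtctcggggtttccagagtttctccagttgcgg
Ldha: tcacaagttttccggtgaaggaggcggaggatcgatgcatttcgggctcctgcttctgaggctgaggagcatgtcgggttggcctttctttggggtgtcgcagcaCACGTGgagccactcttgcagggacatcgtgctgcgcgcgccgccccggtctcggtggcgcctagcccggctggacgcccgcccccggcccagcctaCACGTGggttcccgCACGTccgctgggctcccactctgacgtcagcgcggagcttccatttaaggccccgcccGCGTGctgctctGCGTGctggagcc
Ldhb: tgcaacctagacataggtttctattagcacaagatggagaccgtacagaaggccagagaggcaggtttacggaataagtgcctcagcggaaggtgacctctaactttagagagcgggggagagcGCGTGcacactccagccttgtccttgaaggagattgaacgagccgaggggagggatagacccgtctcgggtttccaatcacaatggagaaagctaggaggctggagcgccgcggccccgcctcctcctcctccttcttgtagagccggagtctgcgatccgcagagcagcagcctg
Hk1: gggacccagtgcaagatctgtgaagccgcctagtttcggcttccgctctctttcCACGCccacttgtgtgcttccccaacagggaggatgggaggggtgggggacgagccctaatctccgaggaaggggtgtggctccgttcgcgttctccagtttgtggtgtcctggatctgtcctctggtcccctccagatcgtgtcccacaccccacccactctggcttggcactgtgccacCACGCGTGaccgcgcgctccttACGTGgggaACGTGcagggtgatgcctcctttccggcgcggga
Hk2: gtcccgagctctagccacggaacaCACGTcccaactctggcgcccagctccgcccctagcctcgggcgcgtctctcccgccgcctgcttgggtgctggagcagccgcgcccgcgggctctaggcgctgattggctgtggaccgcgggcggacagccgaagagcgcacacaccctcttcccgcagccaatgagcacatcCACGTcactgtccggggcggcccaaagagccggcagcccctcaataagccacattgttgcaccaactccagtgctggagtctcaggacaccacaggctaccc

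This spaced pair of CACGAG half-sites, searched on both strands with any 5 bases between, was found in 1 of 32851 RefSeq windows (0.00304%), the one at Txnip, where it began at base 166 of the window, 85 bases before the start. Its letters were taken from the known site, so the match was chosen and not discovered. The Ldha window held 5 matches of ACGTG and 2 of GCGTG. Of the former, 4 came from 2 copies of the palindrome CACGTG, each of which is read as ACGTG on both strands. The other annotated Ldha window held 2 matches of GCGTG and none of ACGTG. Hk2 held 2 matches of ACGTG and none of GCGTG. The Hk1 window shown held 2 of ACGTG and 3 of GCGTG, while the other annotated Hk1 window held neither. Ldhb held 1 match of GCGTG and none of ACGTG. The Txnip window held 2 matches of GCGTG, left unmarked above, and none of ACGTG. Over the 10 genes, 7 had ACGTG and 6 had GCGTG in at least 1 window, beside 21.8% and 35.2% of the 27025 genes with a window. Per window of the same length, 19.6% held ACGTG and 32.4% held GCGTG. Several of the 10 are textbook HIF targets, and a match of letters is not a measured binding site.

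Facts of the libraries bear on all values. Kept cells had 10653 to 346876 counts, and the median per library lay between 65416 and 142675. The sources used here give no word on the collapse of reads by molecular identifier. The median nonzero value was 18, so a count is not a molecule. No 2 cells had identical counts. Of the cell numbers, 91 occurred in more than 1 library, and cells of different libraries with the same number correlated with r = 0.115 on average, against 0.108 for other pairs. HSC markers (Ly6a, Procr, Kit, Slamf1, Mecom, Hlf and Mllt3) were all detected, with summed levels of 2394 to 2884 CPM (the counts of a library's kept cells summed per gene and scaled to a total of 1000000). Markers of other cells summed to at most 358 CPM (erythroid), 144 (granulocyte and monocyte), 143 (megakaryocyte), 90.8 (endothelium), 17.0 (stroma), 9.15 (T and NK cell) and 3.34 (B cell) in any library.

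A strip was taken as 8 consecutive cell numbers, which assumes that the numbers follow the tubes. Cells of 2 strips stood apart. They were the 8 kept cells numbered 25 to 32 of library 2 and the 7 kept cells numbered 9 to 16 of library 4. Their expression correlated within the strip with a mean r of 0.162 and 0.250, against -0.0231 to 0.0476 in 38 other strips. Txnip was higher in them on average: 2685 CPM as a mean of single cells against 1776 in the other cells of library 2, and 3207 against 1295 in library 4. Ldhb was also higher, at 804 against 392 and at 1326 against 360 CPM. Pkm was lower, at 464 against 689 and at 190 against 632 CPM. Pdk1 had no count in any of the 15 cells, Slc2a1 had one in 1 cell, and Hk1 in 1 cell of each strip. Fos, an immediate early gene, was at 700 against 5902 and at 398 against 4664 CPM. These strips were noticed in the data, so the differences are descriptions with no test, and values without these cells are given beside the results that they moved most.

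Gene positions are given as in GENCODE M21 on GRCm38. Slc2a1 (chr4:119108711-119137983, plus strand), the transporter, was at 52.0, 47.2, 27.0 and 46.3 CPM in libraries 1 to 4, a mean of 43.1 ± 11 (SD, n = 4). Library 3 was the lowest and the other 3 lay close together. It had a count in 98 of 292 cells. To compare shares at equal depth, counts were drawn at random until each cell had 30000 (called thinned below), which left out 16 shallower cells and kept 276. The thinned share for Slc2a1 was 27.8% (95% exact binomial interval 17.9 to 39.6), 25.7% (16 to 37.6), 18.8% (10.1 to 30.5) and 35.7% (24.6 to 48.1), and the intervals overlapped. They cover counting error only. Slc2a3 (GLUT3), another glucose transporter of blood cells, was at 57.4 ± 10.1 CPM, above Slc2a1 in 3 of 4 libraries (exact sign-flip test of the log2 ratio, p = 0.25, two-sided). Per kilobase of the longest coding transcript Slc2a3 was above in 2 of 4 (exact sign-flip p = 0.75), so their order was not separated.

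Hexokinase transcripts came from both Hk1 and Hk2. Hk1 (chr10:62268855-62379908, minus strand), whose product is the constitutive hexokinase bound to mitochondria, was at 147, 148, 138 and 127 CPM, a mean of 140 ± 9.6 (SD, n = 4). Hk2 (chr6:82725025-82774454, minus strand), the inducible form, was at 124, 127, 97.7 and 107 CPM, a mean of 114 ± 14. Hk1 was the higher of the pair in every library, and the ranges of the 2 genes did not overlap, by a small margin. Their shares of cells differed more than their levels: after thinning, Hk1 had a count in 54.3% to 70.8% of the cells of a library and Hk2 in 31.3% to 34.7%. Where present, Hk2 had the higher median count, 26 against 16 for Hk1 in the deposited counts.

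Of the enzymes that form ATP, Pkm was among the more abundant transcripts and Pgk1 was not. Pkm (chr9:59656368-59679375, plus strand) was at 612, 755, 605 and 639 CPM, a mean of 653 ± 70 (SD, n = 4), with library 2 the highest. It had a count in 276 of 292 cells. Pgk1 (chrX:106187100-106203699, plus strand) was at 36.7, 37.8, 33.9 and 23.7 CPM, a mean of 33.0 ± 6.4, with library 4 the lowest. It had a count in 151 of 292 cells, but with a median of only 5 counts where present. Thinning to 30000 counts lowered the Pgk1 share from 51.7% ± 3.1 to 37.7% ± 3.6, and asking for 3 counts lowered it to 13.7% ± 2.7. The Pgk1 level is uncertain because of near-identical copies. Of 34 overlapping 150-base windows of its longest coding transcript, 23 matched a transcript of another gene at 97% identity or more, and 1 of the 10 windows in the last 600 bases did. For Pkm, 28 of 46 windows matched elsewhere, so its level is uncertain too. None of the 10 at the end did, the part this 3′ protocol enriches. The counts do not separate the Pkm1 and Pkm2 isoforms.

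Lactate dehydrogenase transcripts were dominated by Ldha. Ldha (chr7:46841475-46855627, plus strand), the subunit of the form common in muscle, was at 784, 857, 799 and 882 CPM, a mean of 830 ± 47 (SD, n = 4), and was ranked 143 of 13742 genes by mean CPM. Ldhb (chr6:142490249-142507957, minus strand), the subunit of the form common in heart, was at 415, 416, 330 and 406 CPM, a mean of 392 ± 41. Library 3 was the low one for Ldhb, and Ldha was above Ldhb in each library without overlap. Without the 15 strip cells Ldhb was at 415, 408, 330 and 357 CPM, so library 3 stood less apart. Ldha had a count in 277 and Ldhb in 253 of 292 cells. In the last 600 bases, 5 of 10 Ldhb windows matched 1 other gene, so Ldhb counts may be understated. None of 10 Ldha windows did.

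Of the 10 genes, Pdk1 and Hif1a had the highest coefficients of variation between libraries. Pdk1 (chr2:71873224-71903858, plus strand) was at 98.0, 54.1, 85.7 and 61.3 CPM, a mean of 74.8 ± 20.5 (SD, n = 4). Hif1a (chr12:73901375-73947530, plus strand) was at 44.3, 21, 40.8 and 15.3 CPM, a mean of 30.3 ± 14.3. Both were higher in libraries 1 and 3 than in libraries 2 and 4. Hif1a had a coefficient of variation of 47.1%, beside an interquartile range of 22.0% to 41.4% over the 2866 genes between 20 and 50 CPM. For Pdk1 the coefficient was 27.5%, inside the interquartile range of 15.2% to 28.5% over the 1880 genes between 50 and 100 CPM. Few cells carried Hif1a: 63 of 292 had a count, and the 10 cells with most of its counts held 39.9% of them. Its thinned shares were 23.6%, 14.3%, 23.4% and 11.4%, with exact intervals of 14.4 to 35.1, 7.07 to 24.7, 13.8 to 35.7 and 5.07 to 21.3, which overlapped. The Pdk1 shares were 45.8%, 31.4%, 51.6% and 24.3%, and the intervals of libraries 3 and 4 (38.7 to 64.2 and 14.8 to 36.0) did not overlap. The Pdk1 share of library 4 without the strip cells was 26.6% (17 of 64 cells, interval 16.3 to 39.1), and the 2 intervals then overlapped. Leaving out the 15 strip cells gave Pdk1 at 76.5 ± 18.6 and Hif1a at 30.6 ± 14 CPM. Hif1a overlaps an annotated gene on each strand, and no source used here states the strand setting of the counting.

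Txnip was the most abundant of the 10 in CPM and was found in nearly every cell. Its levels (chr3:96557957-96561883, plus strand) were 1447, 1677, 1248 and 1357 CPM, a mean of 1432 ± 182 (SD, n = 4), rank 93 of 13742 genes. Library 2 was the highest. It had a count in 290 of 292 cells, and after thinning in 71 of 72, 70 of 70, 64 of 64 and 69 of 70 cells. The middle 50% of cells lay between 881 and 1997 CPM, with a median of 1416 and a highest cell at 7376. Without the 15 strip cells the mean was 1394 ± 164 CPM. An antisense gene overlaps Txnip in GENCODE M21.

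**Figure D1:**
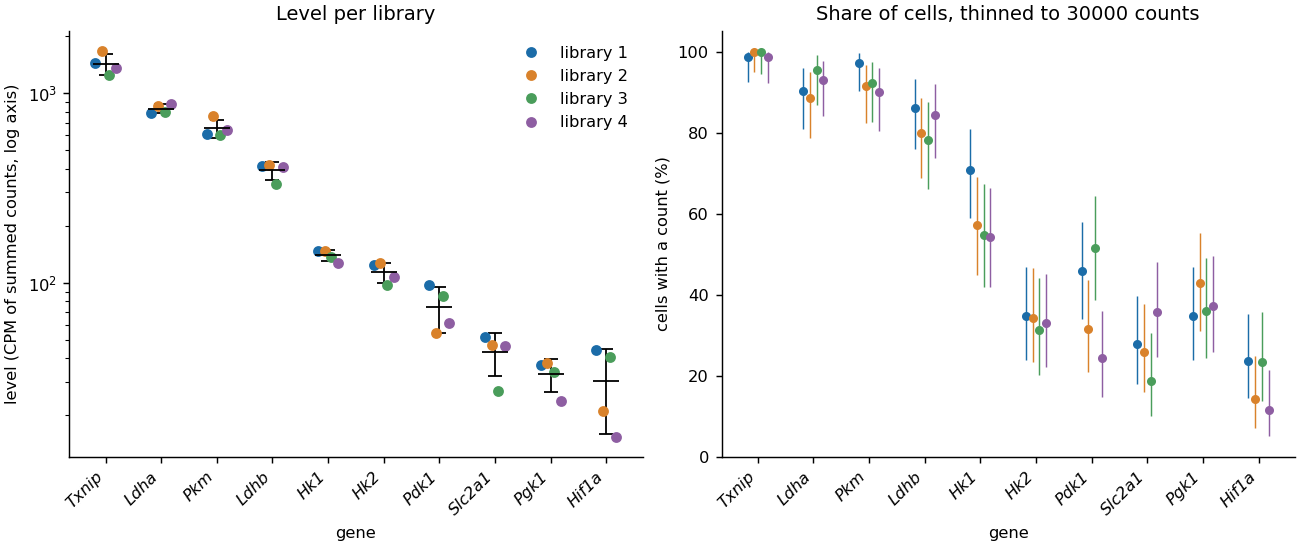
Left, level of each of the 10 genes in CPM of summed counts on a log axis, 1 point per library with a line at the mean and bars of ± 1 SD. Right, share of cells with a count after thinning to 30000 counts, 1 point per library with 95% exact binomial intervals; Txnip, Pkm, Ldha and Ldhb lie at 78% or more in every library and Hif1a at 24% or less.

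Between genes, levels were ordered per kilobase of the longest coding transcript, with the reserve that 3′ enrichment makes counts depend on length less than in whole-transcript data. On this scale Txnip (507 ± 65 CPM per kilobase) and Ldha (457 ± 26) were not separated, since Txnip was higher in 3 of 4 libraries (1.10-fold, exact sign-flip p = 0.375). Ldhb (300 ± 32) and Pkm (268 ± 29) followed with overlapping ranges, although Ldhb was higher in 4 of 4 libraries. Then came Hk1 (32.7 ± 2.2), apart from its neighbours on both sides. Hk2 (20.7 ± 2.5), Pgk1 (18.1 ± 3.5), Pdk1 (14.4 ± 4.0) and Slc2a1 (13.2 ± 3.4) formed a run in which each overlapped the next. Hif1a was the lowest at 6.42 ± 3.0, overlapping Slc2a1. In plain CPM, by contrast, Txnip was above Ldha in each library (1.72-fold) and Pkm above Ldhb.

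The rest of the pathway was unevenly represented. Of 28 glycolytic enzyme genes listed, 25 were in the table, 10 exceeded a mean of 100 CPM and none was at 0 in all libraries. They summed to 4527 ± 253 CPM. Besides Ldha and Pkm the highest were Aldoa (aldolase) at 771 ± 30 CPM and Tpi1 (triose phosphate isomerase) at 434 ± 60 CPM. Gapdh stood at only 12.3 ± 4.2 CPM and Pgam1 at 7.79 ± 0.78. All 10 end windows of Gapdh matched other genes, 88 of them, so its level cannot be read from these counts. None of the 10 end windows of Pgam1 did. Over the whole transcript of Pgam1, 13 of 33 windows matched other genes, so its level is uncertain, as for Pkm (28 of 46). Eno1 (enolase) was at 259 ± 21 CPM, but all of its 10 end windows matched other genes too, so its level and its place in this order cannot be read either. Genes for pyruvate entry to mitochondria summed to 903 ± 49 CPM, led by Pdhb at 205 ± 46 and Mpc2 at 174 ± 14. Those of the pentose phosphate pathway summed to 808 ± 39, led by Taldo1 at 264 ± 8.1 and Tkt at 241 ± 33.

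HIF regulators and the partners of Txnip showed the same contrast between abundant and scarce members. In the HIF list, which held 17 genes, Elob at 503 ± 87, Rbx1 at 443 ± 42, Cited2 at 206 ± 39 and Eloc at 189 ± 29 CPM were highest; Elob, Eloc and Rbx1 are subunits of the ubiquitin ligase that degrades HIF alpha subunits, and the product of Cited2 competes with HIF alpha subunits for coactivators. Epas1, which encodes HIF-2 alpha, was at 3.91 ± 2.1 CPM, below Hif1a in each library. Among the HIF target genes, 19 of 20 listed were in the table, and Bnip3l (a mitophagy receptor) at 186 ± 23 CPM came next after Ldha. In the arrestin and glucose sensing list Txnip was followed by Arrdc1 at 103 ± 17, Max at 91.0 ± 20 and Arrdc3 at 77.4 ± 33 CPM. Arrdc4, the closest relative of Txnip in its response to glucose, was at 45.2 ± 15 CPM, so that Txnip was 33.0-fold higher (range 25.5 to 42.8 over 4 libraries). Mlxip, which encodes MondoA, was at 21 ± 4.1 CPM. Of the thioredoxin system, Gpx1 at 1250 ± 166, Prdx6 at 821 ± 54, Txn1 (the thioredoxin that Txnip binds) at 719 ± 47 and Prdx1 at 550 ± 67 CPM were highest.

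The shares of the lactate dehydrogenases and hexokinases varied little between libraries. Ldha made up 65.4%, 67.3%, 70.7% and 68.5% of the Ldha and Ldhb counts, a mean of 68.0% ± 2.2 (SD, n = 4). The ratio was 2.13-fold and above 1 in 4 of 4 libraries; an exact sign-flip test gave p = 0.13, the smallest that 4 libraries allow. Per kilobase the Ldha share was 60.4% and the ratio 1.53-fold. Of the 10 end windows, 5 of Ldhb and none of Ldha matched another gene. Over the whole transcript 16 of 24 Ldhb and 12 of 34 Ldha windows did. The Ldha share and ratio may therefore be overstated. Hk1 made up 54.2%, 53.8%, 58.5% and 54.2% of the Hk1 and Hk2 counts, a mean of 55.2% ± 2.2, or 1.23-fold (4 of 4 libraries, exact sign-flip p = 0.13). Per kilobase it was 61.3%, or 1.59-fold. Ldhc, known from testis, added 0.159% of the Ldha, Ldhb and Ldhc counts on average, and Hk3, known from myeloid cells, 5.01% of the Hk1, Hk2 and Hk3 counts.

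For the other families, Aldoa gave 93.4% ± 0.95 of the Aldoa and Aldoc counts and Pfkl 53.3% ± 5.5 of phosphofructokinase counts. All 10 end windows of Pfkp matched 1 other gene, so Pfkp counts may be understated and the Pfkl share overstated. Pdk1 was not the leading pyruvate dehydrogenase kinase transcript. Pdk3 gave 52.7% ± 7.3 of that family's counts and Pdk1 30.7% ± 7.3, with Pdk3 above Pdk1 in 4 of 4 libraries (1.74-fold, range 1.10 to 2.79; exact sign-flip p = 0.13). Per kilobase the ratio was 4.27-fold. Pdk4, often linked to fasting and fatty acid use, gave 2.40% ± 0.94.

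**Figure D2:**
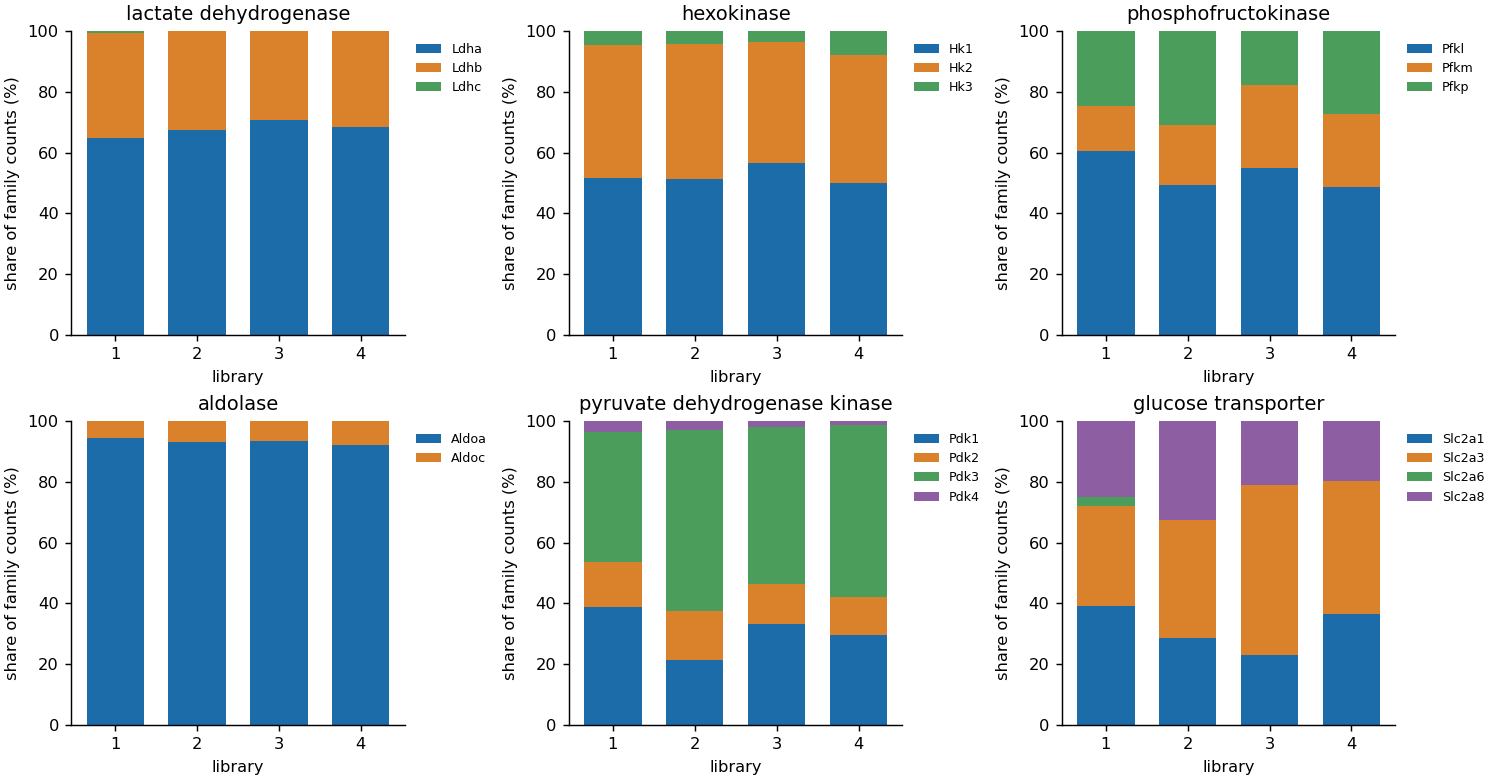
Share of each gene in the counts of the enzyme or transporter genes shown in its panel, in percent, 1 bar per library. The Ldha share runs from 65% to 71% and is alike in the 4 libraries, while Pdk1 and Slc2a1 take shares that differ more between them.

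Within single cells the pairs divided differently, but Hk1 and Hk2 were also found in fewer cells than Ldha and Ldhb. Ldha and Ldhb mostly occurred together: of 276 thinned cells, 209 had both, 44 had Ldha only, 18 had Ldhb only and 5 had neither. The product of the shares within libraries gives 208 cells with both. As each gene was found in most cells, the count could hardly fall far below this. It cannot show whether the 2 genes avoid each other. For the hexokinases 46 cells had both, 118 had Hk1 only, 46 had Hk2 only and 66 had neither. Here the product of the shares gives 54.8 cells with both, and the count was below it in libraries 1 to 4 (15, 11, 8 and 12 cells, beside 17.7, 13.7, 10.9 and 12.5). Without the strip cells the counts of cells with both were the same, beside products of 17.7, 12.4, 10.9 and 13.3. In the deposited counts, not thinned, 62 of 292 cells had both, beside 67.5. There libraries 1 to 3 had 19, 13 and 14 cells beside 21.2, 15.3 and 15.2. Library 4 had 16 beside 15.9 and was not below. Among 148 cells with at least 5 counts of the hexokinase pair, the Hk1 fraction had a median of 80.8%, with 72 cells at all Hk1 and 33 at all Hk2. Among 264 cells with at least 5 counts of the lactate dehydrogenase pair, the Ldha fraction had a median of 70.6%, with 40 cells at all Ldha and 16 at all Ldhb. At these counts a cell with no count of a gene may still express it.

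**Figure D3:**
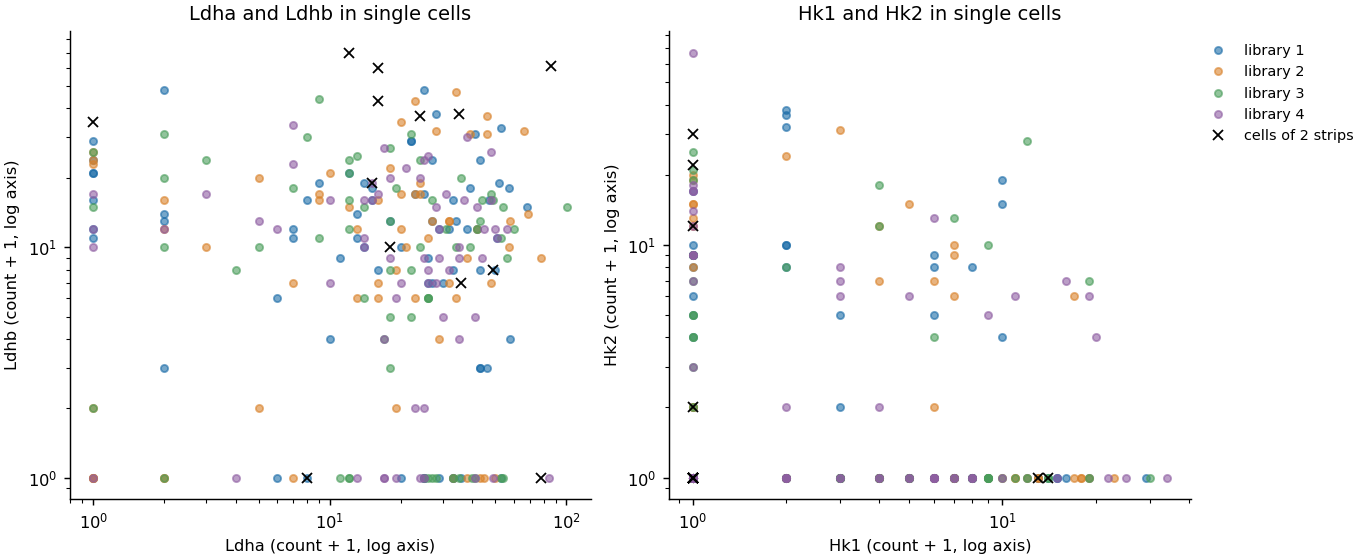
Thinned counts plus 1 in single cells on log axes, Ldha against Ldhb (left) and Hk1 against Hk2 (right), coloured by library, with crosses for cells of the 2 strips. Most cells lie off both axes for the lactate dehydrogenases, whereas 118 and 46 cells lie on the axes of Hk1 and Hk2 with no count of the partner.

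Across the cells of a library the 10 genes were only weakly related. Spearman rho was computed within each library on thinned counts and averaged over the 4 libraries, and it is given with no p because cells of a library share their depth and handling. Over the 45 pairs, mean rho ran from -0.19 to 0.16 with a median of 0.01, and no pair reached 0.2 in size. Only 4 pairs were positive and 5 negative in all 4 libraries, and without the strip cells 3 and 4. Hk1 with Hk2 was the most negative, at -0.26, -0.25, -0.15 and -0.10 in libraries 1 to 4 (mean -0.19), but the mean was -0.11 when cells were thinned to 20000 counts. Slc2a1 with Pdk1 was the most positive, at 0.29, 0.13, -0.05 and 0.27 (mean 0.16). Hk2 with Ldha followed at a mean of 0.15, positive in 4 of 4. Hif1a had its highest mean rho with Slc2a1, at 0.11, and was near 0 with the other textbook targets Pgk1 (0.01), Pdk1 (0.01) and Ldha (0.02). Txnip was below 0 with each of the 9 other genes, from -0.02 with Hif1a and Ldhb to -0.14 with Pgk1 and Pkm. The Pgk1 value became 0.02 at 20000 counts. Over 8 alternative settings the mean stayed below 0 in only 4 with Hif1a and 5 with Ldhb. It did so in 7 with Hk2 and 7 with Ldha, and in all 8 with Slc2a1, Hk1, Pkm and Pdk1. Without the strip cells the 9 means of Txnip were still below 0, but rho was above 0 in 1 library with Slc2a1 (mean -0.02) and in 2 with Hk1 (mean -0.03), pairs that were negative in all 4 libraries with every cell. In counts this sparse, values of this size are no finding for a single pair.

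Txnip and Ldha lay on opposite sides in their relation to a score of 37 oxidative phosphorylation genes (the mean of log2(CPM + 10) over the list's genes in a cell, leaving out the gene compared). For Txnip rho with this score was -0.26, -0.24, -0.36 and -0.20, a mean of -0.26 ± 0.07 (SD, n = 4). For Ldha it was 0.28, 0.38, 0.17 and 0.27, a mean of 0.28 ± 0.08, and for Pkm 0.13, 0.39, 0.10 and 0.31, a mean of 0.23 ± 0.14. The sign was the same in all 4 libraries for each, and Txnip stood below Ldha and Pkm in each library. Hk1 was positive in 4 of 4 too (mean 0.15), but Ldhb, the partner of Ldha, in only 1 of 4 (mean -0.01). Slc2a1, Hk2, Pgk1, Pdk1 and Hif1a had means of 0.04 to 0.10. Another measure moved with the values of Txnip, Ldha and Pkm. The number of genes detected at 30000 counts had a mean rho of -0.14 with Txnip, 0.26 with Ldha and 0.20 with Pkm, and its part in the result was not tested. Without the strip cells the values for Txnip were -0.26, -0.22, -0.36 and -0.04, a mean of -0.22 ± 0.14, so that library 4 lay near 0. For Ldha the mean was then 0.29 and for Pkm 0.19. Over 8 settings, this one included, the Txnip mean ranged from -0.29 to -0.18. Txnip was also higher in cells with a higher HSC identity score (mean 0.18, positive in 4 of 4 libraries) and had a mean rho of -0.12 with the glycolytic enzyme score, negative in 4 of 4. Leaving out the strip cells, the mean with HSC identity was 0.21, positive in 4 of 4. With the glycolytic enzymes the values were then -0.03, -0.31, -0.08 and 0.10, a mean of -0.08, so the shared sign rested on those cells. Ldha had means of 0.22 with the tricarboxylic acid cycle score and 0.15 with the score of the other glycolytic enzymes, each positive in 4 of 4. Pgk1 was lowest with the immediate early score (-0.18). Hif1a was at 0.04 with the HIF target genes and at 0.02 with the glycolytic enzymes.

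**Figure D4:**
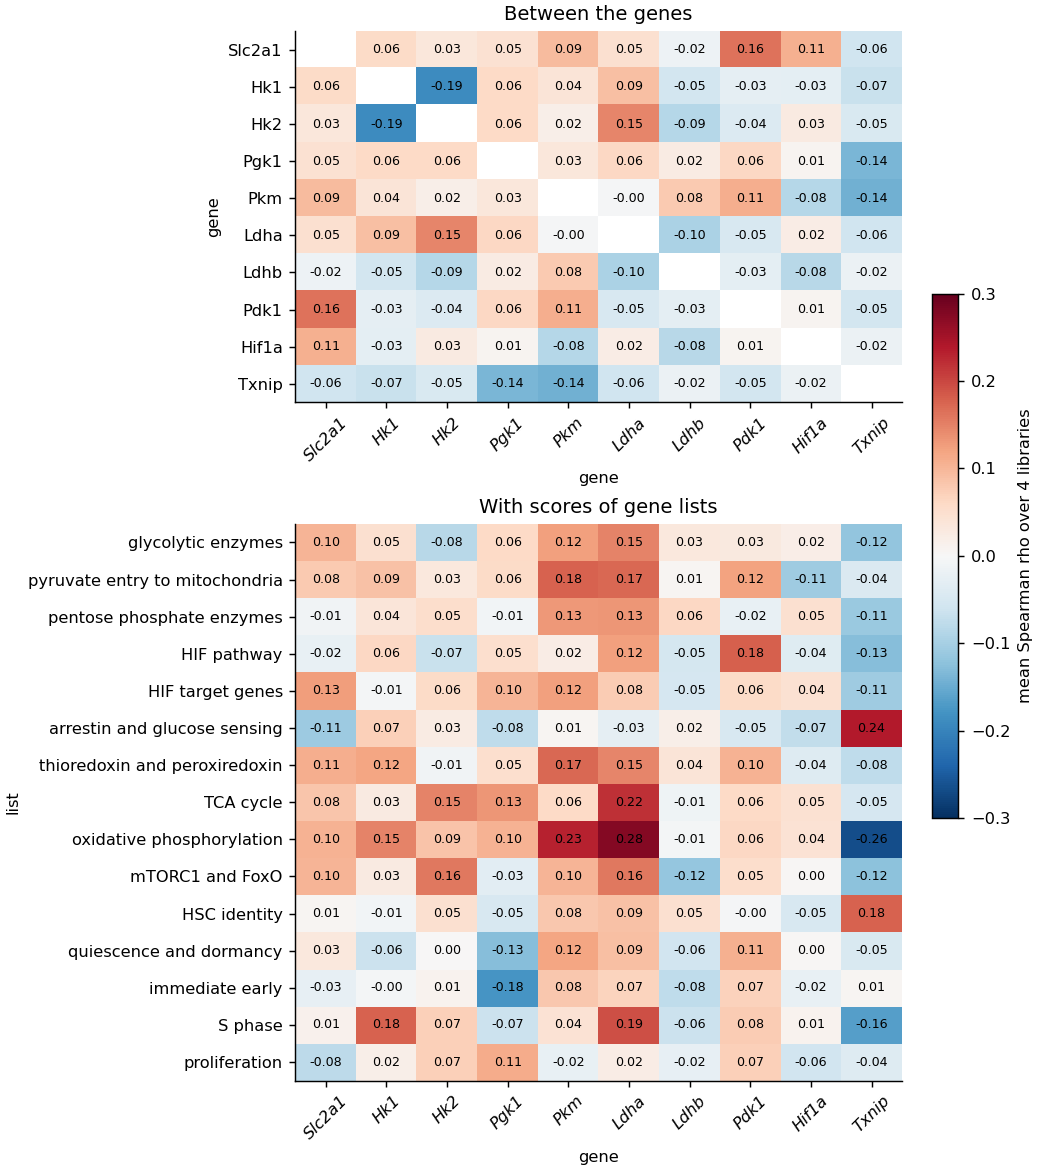
Mean Spearman rho over 4 libraries between the 10 genes (top) and of each gene with the scores of 15 gene lists (bottom), on a scale from -0.3 to 0.3. The row of oxidative phosphorylation holds the highest value, 0.28 for Ldha, and the lowest, -0.26 for Txnip.

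By the rule of the highest mean rho with 1 sign in all libraries, among 4538 genes with a count in at least 20% of cells, the genes most like Txnip were Rps9 (a ribosomal protein, 0.29), Arrdc3 (0.24), Wfdc2 (0.23), Cd200 (a surface glycoprotein, 0.22) and Arrdc4 (0.19). Arrdc3 and Arrdc4 are, like Txnip, alpha-arrestins. For comparison, 99% of genes were below 0.14 with Txnip. With the strip cells left out Cd200 was at 0.19 and Arrdc4 at 0.21. Least like it were Pfn1 (profilin, -0.27), Alkbh1 (-0.26), Ybx1 (-0.25), Cfl1 (cofilin, -0.24) and Denr (-0.24), where 1% of genes were below -0.18. In all, 545 genes were negative with Txnip in all 4 libraries and 187 positive.

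Ldha showed the opposite balance, with 791 genes positive and 161 negative in all 4 libraries. Its most alike genes were Cd63 (a tetraspanin, 0.27), Cfl1 (0.26), Pomp (proteasome maturation, 0.25), Cct3 (a chaperonin subunit, 0.25) and Atp5g1 (ATP synthase, 0.25). Least like it were Akap13 (-0.21), Rnf220 (-0.21), Crebrf (-0.19), Akap9 (-0.19) and Hlf (a transcription factor of HSCs, -0.18). Hlf does not stand for HSC genes as a set here. With the HSC identity score Ldha had a mean rho of 0.09, positive in 3 of 4 libraries. For Hif1a the highest were Nedd8 (0.21), Tufm (0.18), Apeh (0.18), Wdr75 (0.18) and Dera (0.17), and the lowest Psmc6 (-0.20), Arhgap15 (-0.20), Trpc6 (-0.18), Rpp21 (-0.18) and Ctr9 (-0.18). For Pgk1 they were Ywhae (0.22), Tmem70 (0.20), Prps1 (0.20), Psmc3 (0.19) and Snap23 (0.19), and Klf6 (-0.20), Fosb (-0.18), Vwa5a (-0.18), Tle2 (-0.18) and Atp6v1h (-0.18). These genes are the extremes of all genes compared and are descriptions.

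Since gates could not be compared, cells of the same library were split by transcripts and their thinned counts summed per library and class. Each split was fitted with edgeR's quasi-likelihood test over all genes with library as a block, calling genes at a Benjamini-Hochberg adjusted p below 0.05. The first split took cells with a count in 2 or more of 14 proliferation genes, such as Mki67 and Top2a, against the others. It held 33 and 243 cells, and library 2, with 2 cells in the class, was left out, so 3 libraries entered the fit. None of the 10 genes passed, beside 0.0972% of all genes (8 of 8234; 0.085% higher and 0.0121% lower). The 7 higher genes included Car1, Tk1, Pclaf, Stmn1 and Hmgb2, of which Tk1, Pclaf, Stmn1 and Hmgb2 are known from dividing cells, and Dusp2 was the lower one. As proliferation genes, left out of the test, defined the class, the rise of genes of dividing cells is no separate finding. Hk2 was at 66.8, 51.4 and 55.6 CPM in the class and at 130, 113 and 118 in the others of libraries 1, 3 and 4. These values did not overlap, yet the log2 change of -1.08 ± 0.53 (SE) did not pass (edgeR, adjusted p = 0.988), against a median over all genes of -0.24. Slc2a1 was at 3.71, 25.7 and 3.71 CPM against 64.0, 29.4 and 78.1, lower in each library, with a log2 change of -2.56 ± 1.17 (edgeR, adjusted p = 0.983). The 4 most abundant genes had log2 changes of -0.22 ± 0.17 (Txnip), -0.21 ± 0.21 (Ldha), -0.03 ± 0.23 (Pkm) and -0.02 ± 0.27 (Ldhb), near the median of all genes or between it and 0. At an unadjusted p under 0.05 there were 408 of 8234 genes, Slc2a1 among them. That is near the share such a cut gives by chance, so the place of Slc2a1 there is no finding. DESeq2 called 24 genes, edgeR called 0 without library 1, with no library term or on counts that were not thinned, and none of the 10 was called in any of these. Of the other pathway genes, 0 of 18 glycolytic enzymes, 0 of 14 HIF target genes and 0 of 37 oxidative phosphorylation genes passed.

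The split by Cd27 transcript compared 149 cells with a count and 127 with none, which describes the transcript and not the sort gate. Of the strip cells, 10 fell in the class with a count and 3 in the other. Again none of the 10 genes passed, beside 0.0589% of all genes (5 of 8482). At an unadjusted p under 0.05 there were 445 of 8482 genes, Hk2 among them, near the share such a cut gives by chance. DESeq2 called 32 genes and edgeR called 0 without library 1 or on counts not thinned. None of the 10 was called in any of these. The genes that fell were Klf6, Apoe, Clu, Ppp1r15a and Ramp2. Hk2 was at 79.0, 124, 96.3 and 66.7 CPM in cells with a Cd27 count and at 170, 143, 106 and 151 in cells with none, lower in each library but with overlapping ranges. Its log2 change was -0.69 ± 0.28 (SE; edgeR, adjusted p = 0.90), and it became 0.14 when counts were not thinned. Pdk1 was at 125, 61.0, 116 and 83.4 against 80.4, 63.2, 70.2 and 44.4 CPM, higher in 3 of 4 libraries (log2 change 0.52 ± 0.32, edgeR adjusted p = 0.954). Txnip was at 1582, 1787, 1313 and 1453 against 1281, 1634, 1493 and 1370 CPM, with overlapping ranges and a log2 change of 0.05 ± 0.10 (edgeR, adjusted p = 0.977). Txnip without the strip cells was at 1582, 1642, 1313 and 1218 against 1281, 1569, 1493 and 1322 CPM. Ldhb in the cells of library 4 with a Cd27 count was at 507 CPM with the strip cells and at 377 without them. Ldha changed by -0.21 ± 0.13 on the log2 scale (edgeR, adjusted p = 0.954). No glycolytic enzyme of 18, HIF target gene of 13 or oxidative phosphorylation gene of 37 passed.

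The split by Fos compared 74 cells under 1000 CPM with 202 cells above, of which 34 lay between 500 and 2000 CPM, so the class is a range and not a type. The low class had a median of 85150 counts before thinning, against 102878, and its part in the result was not tested. Of the strip cells, 9 fell in the low class and 4 in the other. None of the 10 genes passed, beside 0.194% of all genes (16 of 8228, all lower), of which 10 belonged to the 13 tested immediate early genes. The leading ones were Ppp1r15a, Jun, Dusp1, Ier2 and Junb. Fos, left out of the test, is itself an immediate early gene and defined the class, so the fall of such genes is no separate finding. At an unadjusted p under 0.05 there were 361 of 8228 genes, Ldhb among them, near the share such a cut gives by chance. DESeq2 called 38 genes, none of them of the 10. Ldhb was at 429, 591, 393 and 643 CPM in cells low in Fos and at 423, 371, 347 and 363 in the others, higher in each library (log2 change 0.43 ± 0.20, edgeR adjusted p = 0.983). Without the strip cells Ldhb was at 429, 476, 393 and 403 against 423, 388, 347 and 331 CPM. Txnip had a log2 change of 0.01 ± 0.14 (edgeR, adjusted p = 1.00), which became -0.19 without them. Ldha had 0.00 ± 0.16 and Pkm -0.25 ± 0.17 (edgeR, adjusted p = 1.00 and 0.983). No glycolytic enzyme of 16 and no HIF target gene of 13 passed. Summed over few libraries, these splits leave wide errors for the scarce genes, and a p that misses the threshold does not show equal levels.

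**Figure D5:**
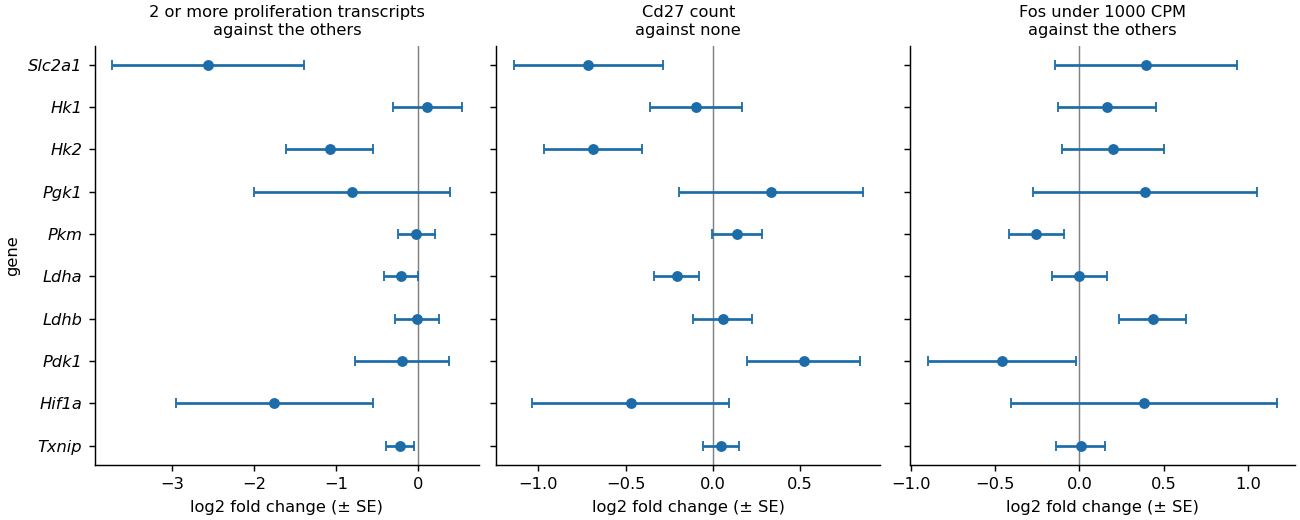
Log2 fold change of each of the 10 genes with its SE in the 3 splits (edgeR, thinned counts, library as a block); positive values are higher in the class named first. The SE is 0.10 to 0.27 for Txnip, Ldha, Pkm and Ldhb and over 1 for Slc2a1, Pgk1 and Hif1a in the split by proliferation transcripts, and no gene passed the threshold.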

How the data were processed

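RNA of single cells was measured in 4 libraries by a modified Smart-seq2 (STRT-seq) protocol with enrichment of 3′ ends, per the labels' protocols. The deposited table holds raw counts per gene and cell. The submitters' processing notes name HTSeq 0.9.1, Trimmomatic 0.36 and HISAT2 2.1.0 with GRCm38 as build; annotation, strand setting and collapse of molecular identifiers are not given in the sources used here, so counts may hold PCR copies.

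Cells with at least 10000 counts and 1000 genes were kept. No doublet caller was run; the labels describe scatter settings against doublets. CPM came from counts summed per library. Shares, correlations and splits used cells thinned to 30000 counts (fixed seed); 16 cells were shallower. Splits were tested with edgeR 4.0.16 (filterByExpr, TMM, quasi-likelihood, library as a block because both classes come from the same library), with DESeq2 1.42.0 as an alternative, and were tested on simulated data. Isoenzyme ratios were tested by exact sign flips. Gene positions and lengths came from GENCODE M21, copies from BLAST 2.17.0 of transcripts, and start-site sequences from RefSeq.

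The genes, gene lists and tests were chosen with earlier results of these data known. Genes named are the 10, the 4 highest of a list, the 5 most and least alike to Txnip, Hif1a, Ldha and Pgk1, and the 5 with the lowest p in each direction of a split; family members outside the 4 highest (such as Epas1, Gapdh, Pgam1, Mlxip, Arrdc4, Slc2a3 and the kinases Pdk3 and Pdk4) were named for the question of isoenzyme use or copies, after their values were seen. The alternatives were other scalings, depths, filters, cuts, tools, left-out libraries and, added after seeing the data, leaving out the 15 strip cells. The enzyme families leave out 2 genes that are not reported here.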

Additional observations from a re-analysis of the deposited data

Results flagged for a closer look

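In groups of 4 libraries, a library was singled out where its gap to the nearest other, relative to the whole range, passed Dixon's 95% critical value. Of 141 groups checked, 10 had such a library, beside about 1 in 20 that chance gives, so most of these may be chance. When the 15 cells of the 2 strips were left out, a check chosen after seeing the data, 3 of the 10 still passed and 7 did not. The Ldhb level stood low in library 3, at 330 CPM, but without the strip cells the 4 libraries were at 415, 408, 330 and 357 CPM and it no longer passed. The Hk1 share of the Hk1 and Hk2 counts stood high in library 3, at 58.5%, which leaves 41.5% for Hk2; without the strip cells the Hk1 shares were 54.2%, 55.1%, 58.5% and 53.3%, and neither gene's share passed. Slc2a6 reached 3.05% of the glucose transporter counts in library 1, and still passed without the strip cells. The rho of Ldha with Pdk1 stood at -0.22 in library 1 and did not pass without them. Slc2a1 had a rho of -0.16 with the oxidative phosphorylation score in library 1, where the other 3 libraries lay above 0, and did not pass without them either. Txnip had a rho of -0.33 with the glycolytic enzyme score in library 2, of -0.014 with the HIF pathway score in library 4 and of 0.15 with the quiescence score in library 3. Without the strip cells the first was -0.31 and did not pass, the library 4 value with the HIF pathway was 0.061 and still passed, and the values with quiescence were -0.13, -0.010, 0.15 and 0.065 and did not pass. Summed S phase genes stood at 1819 CPM in library 3 and still passed without the strip cells.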

How the results depend on the processing

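Levels of the 10 genes moved by no more than 1 SD under any of 100 alternatives. Some of these could not have moved them that far. Leaving out 1 of 4 libraries always shifts a mean by less than 1 SD. The cut at 20% mitochondrially encoded counts removed no cell, since the highest kept cell was at 4.58%. The median share of cells, 51.8%, was 58.2% when not thinned and 38.5% when 3 counts were asked. The Ldha share of its pair was 60.4% per kilobase and 63.7% as a mean over single cells. The Hk1 share was 61.3% per kilobase and 66.4% as such a mean. Counts of all genes called moved more. The proliferation split gave 24 with DESeq2, 13 with no filter, 23 with a stricter cut, 0 when not thinned, 0 with no replicate block (library left out of the model), 5 without the strip cells and 27 with DESeq2 without them; leaving out 1 library gave 0 to 9. The Cd27 split gave 32, 38 and 0 (DESeq2, no filter, not thinned), 31 with DESeq2 without the strip cells, 6 with no replicate block and 0 to 6 without 1 library, 0 being without library 1. The Fos split gave 38 and 42 (DESeq2, no filter), 34 with DESeq2 without the strip cells, 17 with no replicate block and 11 to 20 without 1 library. None of the 10 genes was called in any of these.

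Of 350 log2 changes of the 10 genes under alternatives, 308 kept their direction and 42 reversed, in 14 of 30 results, each with its main value not called; the cause was not tested. In the proliferation split, Hk1 had -0.033 (thinned to 20000) and -0.055 (not thinned), and -0.032 to 0.36 with 1 library left out, reversed without library 1 or 4. Pgk1 had 0.32 (not thinned). Pkm had 0.037 (DESeq2), 0.050 (without strip cells) and 0.11 (DESeq2 without strip cells), and -0.10 to 0.031 with 1 library left out, reversed without library 4. Ldhb had 0.045 (DESeq2) and 0.026 (no replicate block), and -0.24 to 0.20 with 1 library left out, reversed without library 3. Pdk1 had 0.083 (no replicate block) and 0.21 (not thinned), and -0.68 to 0.41 with 1 library left out, reversed without library 4. In the Cd27 split, Hk1 had 0.056 (not thinned), and -0.24 to 0.16 with 1 library left out, reversed without library 4. Hk2 had 0.14 (not thinned). Ldhb had -0.085 to 0.22 with 1 library left out, reversed without library 4. Hif1a had 0.027 (not thinned), and -0.87 to 0.0024 with 1 library left out, reversed without library 3. Txnip had -0.088 (not thinned), -0.021 (without strip cells) and -0.024 (DESeq2 without strip cells), and -0.0039 to 0.14 with 1 library left out, reversed without library 1. In the Fos split, Slc2a1 had -0.0024 (thinned to 20000) and -0.099 (not thinned), and -0.011 to 0.84 with 1 library left out, reversed without library 1. Ldha had 0.031 (DESeq2), 0.0075 (no replicate block), 0.040 (thinned to 20000) and 0.074 (stricter cut), and -0.16 to 0.11 with 1 library left out, reversed without library 1 or 4. Hif1a had -0.29 to 1.01 with 1 library left out, reversed without library 2. Txnip had -0.030 (no filter), -0.052 (thinned to 20000), -0.051 (not thinned), -0.089 (stricter cut), -0.19 (without strip cells) and -0.15 (DESeq2 without strip cells), and -0.16 to 0.11 with 1 library left out, reversed without library 4. Depth limits the scarce genes: at 30000 counts per cell, Hif1a, Slc2a1, Hk2, Pgk1 and Pdk1 had counts in fewer than 40% of cells.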

Other observations

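The genes of this paragraph were chosen after their values were seen. The mitochondrial pyruvate carrier is built from the products of Mpc1 and Mpc2, and the levels of the 2 transcripts lay far apart. Mpc2 was at 169, 162, 172 and 194 CPM in libraries 1 to 4, with a count in 165 of 292 cells. Mpc1 was at 0.675, 0.742, 0.571 and 0.535 CPM, with a count in 15 of 292 cells. Copies of Mpc1 elsewhere in the genome were not examined here, and a gene on the other strand overlaps it. Of the lactate transporter genes, Slc16a1 was at 10.2 ± 6.4 CPM (SD, n = 4) and Slc16a3 at 2.23 ± 1.1, with counts in 29 and 5 of 292 cells, while Bsg, which encodes their chaperone, was at 543 ± 77. Of the prolyl hydroxylases that mark HIF alpha subunits for degradation, Egln2 was at 55.9 ± 8.7 CPM, Egln1 at 7.83 ± 6.1 and Egln3 at 6.94 ± 4.6, so Egln2 was the highest in each of the 4 libraries.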
